A study of Homo sapiens with 6 samples.

Results

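Metallothioneins are small, cysteine-rich proteins of the cytosol and nucleus that bind zinc and copper tightly and also take up toxic metals such as cadmium. Their genes are switched on by the zinc-sensing transcription factor MTF1, which binds metal response elements in their promoters, and SLC30A1, the exporter that moves zinc out of the cell, is another well-known MTF1 target. In the normal prostate, luminal epithelial cells hold much zinc, and prostate cancer cells typically hold less. The 9 genes described here, of 29804 gene symbols counted, are the metallothioneins MT1E, MT1F, MT1G, MT1H, MT1M, MT1X and MT2A together with MTF1 and SLC30A1. They were chosen by symbol, with results of these counts already known and without a named comparison, so their values, and the counts of members past a threshold, are given as a description, and no member is given a p-value.

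RNA was sequenced from 22Rv1, a human prostate carcinoma epithelial cell line with a WT genotype label, in 3 groups of 2 libraries. WT cells were untreated parental cells harvested at week 0. AM (age matched) cells were left untreated for 6 weeks in parallel with 6WP cells, which received the radiomimetic drug phleomycin at 1 µg/ml daily on week days for 6 weeks, each time for a short exposure followed by fresh medium. All groups shared the same serum-supplemented RPMI medium, and 1 cell line stands for the disease. Thus AM against WT compares cells 6 weeks apart in culture, and 6WP against AM compares the phleomycin regimen with none at equal time. The comparison of 6WP with WT joins both. Each treatment ended with removal of the medium and a wash, and no such handling is stated for AM cells. Phleomycin therefore cannot be told apart from this handling, nor time in culture from the time of harvest. The labels call the libraries biological replicates but do not say how the cultures were separated. The SDs given here thus measure the spread between these libraries. The standard errors come from 1 fit to all 6 libraries, with a spread pooled over the groups. They therefore do not show how far the spread differed between groups.

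Library totals ranged from 21222201 to 35311945 counts, and 3 counts, taken as the floor of detection, equalled 0.0883 to 0.138 CPM (counts scaled to the TMM-normalized library size), for counting error only. The replicates of 6WP cells lay further apart than those of the other groups, with a chi-square over genes, divided by its degrees of freedom, of 67.9 against 5.97 for WT and 9.68 for AM cells. The 7 luminal prostate markers used here (KLK2, KLK3, HOXB13, FOXA1, KRT8, KRT18 and EPCAM) were all detected, with a summed level of 1752 to 1891 CPM in WT, 1514 to 1777 in AM and 1832 to 2116 in 6WP libraries. The AM range overlapped that of WT and lay below that of 6WP libraries. PTPRC, CD3E and CDH5, which define leukocytes and endothelium, were at 0 in every library, and PECAM1 reached at most 2 counts. The third leukocyte marker, CD68, carried all of its list at 2.34 to 3.03 CPM in WT, 3.41 to 3.66 in AM and 2.31 to 2.85 in 6WP libraries, and the 3 fibroblast and muscle markers (COL1A1, COL3A1 and ACTA2) summed to 9.77 to 9.92 CPM in WT, 5.36 to 6.41 in AM and 5.50 to 9.29 in 6WP libraries. CD68 was thus higher in both AM libraries than in any other. Both AM libraries lay above both WT libraries for 36.9% of all tested genes. Both 6WP libraries lay below both AM libraries for 28.5%. The fibroblast and muscle sum of AM libraries lay below that of WT but overlapped that of 6WP libraries. Whether any of these marker differences had a part in the metallothionein result below was not tested.

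The 7 metallothionein genes lie within 75.6 kb of chromosome 16 in GRCh38, and all but MT1G are on the plus strand. From the lowest coordinate upward, MT2A is followed by MT1E, MT1M, MT1F, MT1G, MT1H and MT1X. MT2A spans 56608584 to 56609497 and MT1X, at the other end, 56682470 to 56684196. MTF1 (37809574 to 37859592) and SLC30A1 (211571568 to 211579161) are on the minus strand of chromosome 1. The canonical GENCODE transcripts of MT1F, MT1G, MT1H, MT1M, MT1X and MT2A have 3 exons and 397 to 425 bases, so they are among the short messages of the cell. Because the family is so alike, the share of 100-base windows (the read length) of each canonical transcript that occurs identically in a transcript of another gene was counted. It was 0% for MT1E, MT1F, MT1G, MT1M, MT2A, MTF1 and SLC30A1 and 3.36% for MT1H, which shares windows with MT1HL1, a gene at 0 counts in all libraries. For MT1X it was 22.0%, all with ENSG00000259827, an annotated locus on the same strand whose exons overlap it, so reads from the shared part cannot be assigned to either. Reads with mismatches could still have been divided between family members by the authors' counting.

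The promoters are shown because the members' levels moved together while some members stood apart. RefSeq promoter sequences (GRCh38.p14) were at hand for 5 of the 9 genes, MT1H, MT1X, MT2A, MTF1 and SLC30A1. The core of the metal response element was searched as TGCACNC or TGCGCNC on both strands in the 250 bases upstream of the start, where no 2 matches overlapped in the sequences printed. At least 1 core occurred in 24.8% of all 35116 promoters of this length, at least 4 in 0.37% and at least 7 in 0.0313%. MT1H held 8 cores, MT2A 7, MT1X 4, SLC30A1 1 and MTF1 0. In the 4 sequences below, written 5′ to 3′ on the gene's own strand, capitals mark the cores on either strand. They cover chr16:56608334-56608583 (plus strand) for MT2A, chr16:56669564-56669813 (plus) for MT1H, chr16:56682220-56682469 (plus) for MT1X and chr1:211579162-211579411 (minus) for SLC30A1.
MT2A: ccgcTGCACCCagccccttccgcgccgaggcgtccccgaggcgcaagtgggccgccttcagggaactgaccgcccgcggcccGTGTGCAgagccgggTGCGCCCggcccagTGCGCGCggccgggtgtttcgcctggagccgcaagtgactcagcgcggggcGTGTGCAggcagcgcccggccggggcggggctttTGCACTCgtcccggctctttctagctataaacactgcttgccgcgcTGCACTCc
MT1H: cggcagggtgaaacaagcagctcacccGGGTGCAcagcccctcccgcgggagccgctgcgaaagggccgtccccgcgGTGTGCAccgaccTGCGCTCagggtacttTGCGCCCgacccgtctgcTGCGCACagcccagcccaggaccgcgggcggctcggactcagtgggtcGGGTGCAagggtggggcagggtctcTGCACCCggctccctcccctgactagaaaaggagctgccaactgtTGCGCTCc
MT1X: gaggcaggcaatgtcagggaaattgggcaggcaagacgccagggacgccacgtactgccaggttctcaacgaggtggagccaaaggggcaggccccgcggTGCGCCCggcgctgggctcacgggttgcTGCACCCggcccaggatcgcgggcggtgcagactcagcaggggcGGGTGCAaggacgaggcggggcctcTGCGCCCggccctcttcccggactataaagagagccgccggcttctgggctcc
SLC30A1: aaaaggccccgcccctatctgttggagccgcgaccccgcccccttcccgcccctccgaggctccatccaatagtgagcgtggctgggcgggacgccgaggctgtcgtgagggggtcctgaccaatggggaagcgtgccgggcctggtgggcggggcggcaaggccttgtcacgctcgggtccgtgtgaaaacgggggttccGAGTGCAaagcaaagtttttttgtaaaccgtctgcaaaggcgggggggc
The last core was separated from the start by 1 base in MT2A and MT1H, by 46 bases in MT1X and by 42 bases in SLC30A1. MT1X, with 4 cores, was the metallothionein whose level differed least between groups, and MT1H, with the most, was the one with the fewest counts. These matches describe the sequence and are not evidence of binding.

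After 6 weeks in culture without phleomycin, 6 of the 7 metallothioneins were higher than in WT cells, in both libraries, by 1.65-fold for MT1E to 28.6-fold for MT1M. In cells kept for the same time with phleomycin, MT2A, MT1G, MT1E and MT1F were near their week 0 level. MT1M and MT1H were also far below AM cells there, but had too few counts to be compared with week 0. MT1X and MTF1 had overlapping libraries in every comparison, and SLC30A1 differed by less than any of the 6 in both comparisons with AM cells. In bulk RNA, more cells that express a gene and more RNA per cell cannot be told apart. All 9 genes passed the expression filter, MT1M and MT1H only through the AM libraries, where they were high. In AM against WT cells 6 members passed an adjusted p-value under 0.05, all higher, against 7.74% of all 14672 tested genes that passed as higher and 9.93% as lower (edgeR's quasi-likelihood test with Benjamini-Hochberg adjustment). In 6WP against AM cells 6 passed, all lower, against 9.68% of genes that passed as lower and 11.7% as higher. In 6WP against WT cells 0 of the 9 passed, against 3.00% of genes in either direction (1.63% higher and 1.37% lower), and 0 had an unadjusted p under 0.05. With the Wald test of DESeq2, which gave 8 of the members an adjusted p in this comparison, 0 passed. Both AM libraries lay above both WT libraries for 7 of the 9 genes, as for 36.9% of all genes, and both 6WP libraries lay below both AM libraries for 7, as for 28.5%, the exceptions each time being MT1X and MTF1. Since members were listed with results known, these counts are descriptive. The median log2 fold change of the 9 genes was 1.35 in AM against WT, -1.51 in 6WP against AM and -0.09 in 6WP against WT, where the medians of all tested genes were -0.0023, 0.05 and 0.01. The first pair of comparisons shares the AM libraries, so their values are not independent of each other.

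The number passing in AM against WT depended on single libraries. It was 2 without WT replicate 1, 3 without WT replicate 2, 4 without AM replicate 1 and 3 without AM replicate 2, while 7 passed without either 6WP library. For 6WP against AM it was 4 without either AM library. In 6WP against WT, 1 member (MT2A, lower) passed without 6WP replicate 1.

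**Figure D1:**
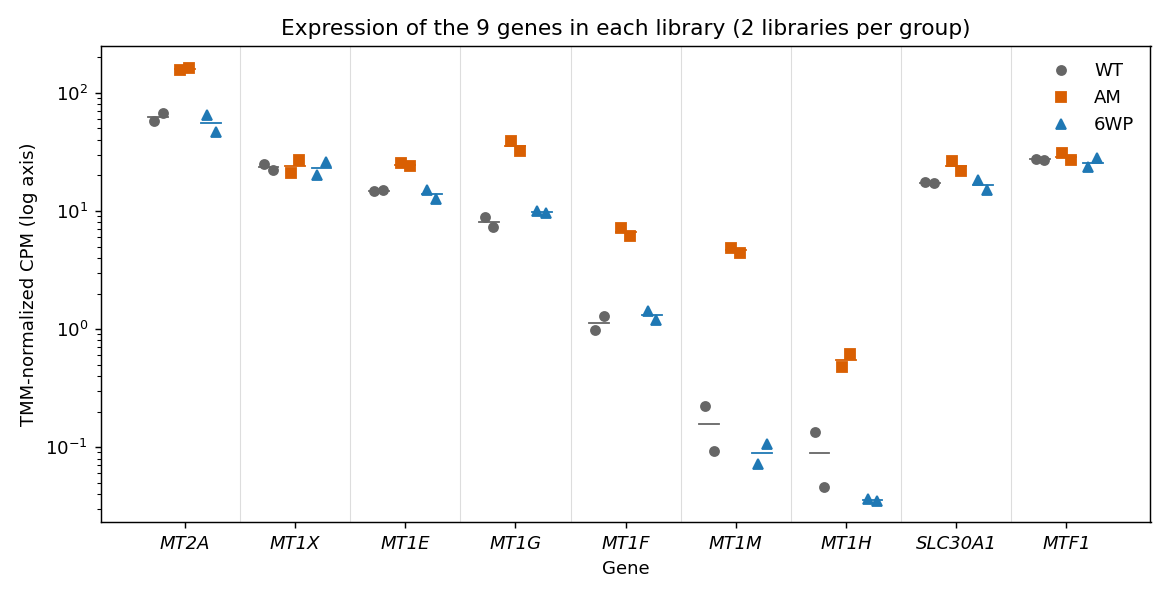
Expression of each gene in each library as TMM-normalized CPM on a log axis, with 2 points per group (WT circles, AM squares, 6WP triangles) and a line at the group mean. The AM points lie above all others for every metallothionein but MT1X, while MTF1 overlaps between groups. Points under about 0.14 CPM rest on 3 counts or fewer.

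MT2A, the most abundant metallothionein of most human tissues, reached 58.4 and 67.1 CPM in WT libraries, 155 and 164 CPM in AM libraries and 65.5 and 46.7 CPM in 6WP libraries. Both AM libraries were above all others, whereas 1 of the 6WP libraries lay inside and 1 below the WT range. Mean levels were 62.8 ± 6.13 CPM (WT), 160 ± 6.11 CPM (AM) and 56.1 ± 13.3 CPM (6WP), with SD over 2 libraries. On the log2 scale the fitted difference was 1.35 (standard error 0.17) in AM against WT, -1.51 (0.17) in 6WP against AM and -0.16 (0.17) in 6WP against WT. Between the 6WP replicates MT2A thus varied more than between replicates of the other groups, and without 6WP replicate 1 the difference from WT was -0.44.

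MT1G, often silenced by methylation in carcinomas, had 8.88 and 7.35 CPM in WT, 39.6 and 32.0 in AM, and 10.0 and 9.62 in 6WP libraries. The AM libraries were far above the rest, and the 6WP libraries lay slightly above both WT libraries without overlap. Such separation upward was found in 25.5% of all tested genes in 6WP against WT, and MT1G was the only member showing it. Its log2 fold change was 2.14 (standard error 0.17) in AM against WT, a 4.40-fold difference, -1.86 (0.17) in 6WP against AM and 0.27 (0.17) in 6WP against WT.

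MT1E had 14.9 and 15.0 CPM in WT, 25.3 and 24.0 in AM, and 15.1 and 12.7 in 6WP libraries. It had the smallest difference among the 6 metallothioneins that stood out in AM cells, namely 0.73 on the log2 scale (standard error 0.14) against WT. In 6WP against AM cells the value was -0.82 (0.14), and in 6WP against WT -0.10 (0.14), with overlapping libraries. MT1F had 0.982 and 1.29 CPM in WT, 7.19 and 6.15 in AM, and 1.41 and 1.20 in 6WP libraries. The WT and 6WP ranges of MT1F overlapped, and both lay below AM. The log2 fold change of MT1F was 2.55 (standard error 0.26) in AM against WT, or 5.86-fold, -2.35 (0.25) in 6WP against AM and 0.20 (0.29) in 6WP against WT.

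MT1M and MT1H were close to absent outside AM cells. MT1M was counted 5 and 2 times in WT libraries, 114 and 150 times in AM libraries, and 2 and 3 times in 6WP libraries. In CPM this was 0.223 and 0.0918 in WT, 4.91 and 4.41 in AM, and 0.0723 and 0.106 in 6WP libraries, so that only the AM libraries held MT1M clearly above the floor. The ratio of AM to WT over the summed counts was 29.1, with an exact 95% counting interval of 13.9 to 73.2, and that of 6WP to AM was 0.0193 (0.00622 to 0.0457). All counting intervals given here pool the libraries of a group. They cover counting error only and leave out the spread between libraries. Fitted log2 fold changes were 4.84 (standard error 0.41) in AM against WT and -5.63 (0.42) in 6WP against AM, the largest of the 9 genes in each. Over the 12 alternatives the former ranged from 4.37 (without WT replicate 2) to 5.60 (without WT replicate 1). MT1H was counted 3 and 1 times in WT, 11 and 21 times in AM, and 1 and 1 times in 6WP libraries. Its counts in WT and 6WP cells were all at or under the floor, and no difference between these groups was detectable at this depth, although the 2 pairs of CPM values do not overlap, as for 25.2% of all tested genes that were lower. The ratio of AM to WT was 6.18 (2.19 to 24.0), and that of 6WP to AM 0.0638 (0.00741 to 0.250). The ratio of 6WP to WT was 0.394 (0.0357 to 2.75) for MT1H and 0.563 (0.141 to 2.06) for MT1M. The fitted log2 fold change of MT1H in AM against WT, 2.55 (standard error 0.60), became 3.47 without WT replicate 1 and 2.03 without WT replicate 2.

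MT1X stood apart from the family. It had 25.2 and 22.1 CPM in WT, 20.9 and 26.8 in AM, and 20.2 and 26.1 in 6WP libraries. All of these ranges overlapped, and group means lay between 23.1 and 23.9 CPM. The log2 fold change of MT1X was 0.02 (standard error 0.18) in AM against WT, -0.05 (0.18) in 6WP against AM and -0.03 (0.18) in 6WP against WT. In the same libraries MT1G, which had fewer counts per length than MT1X in WT cells, exceeded it in AM cells.

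**Figure D2:**
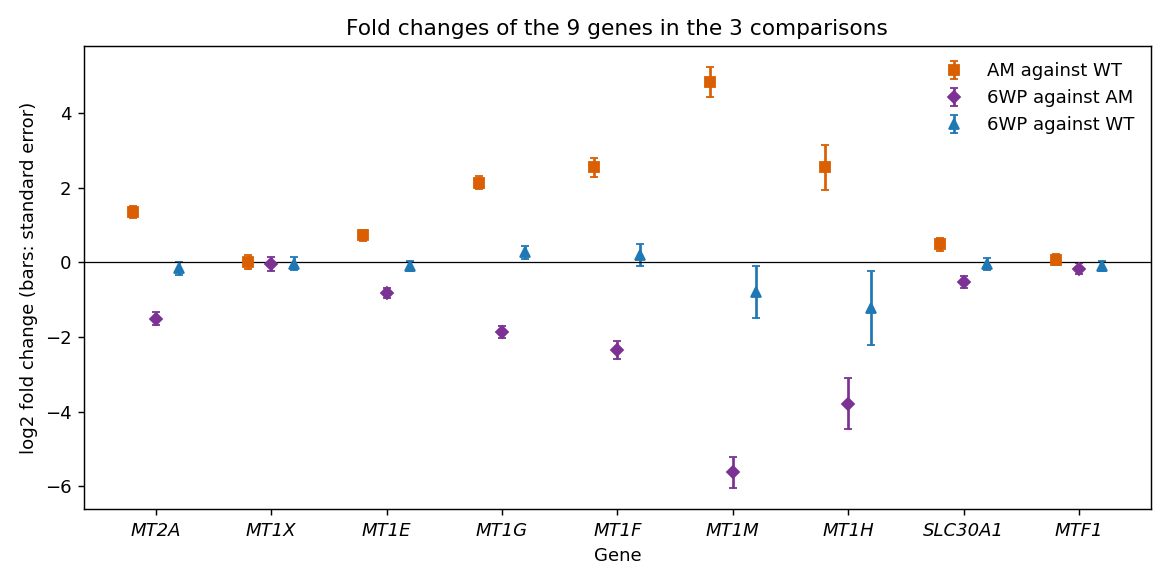
Log2 fold changes of the 9 genes in AM against WT (squares), 6WP against AM (diamonds) and 6WP against WT (triangles), with bars of 1 standard error from the fit to all 6 libraries. MT1M reaches 4.84 and -5.63 in the comparisons with AM, whereas MT1X and MTF1 stay within 0.17 of 0 in all of them.

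Of the regulators, MTF1 had 27.7 and 27.1 CPM in WT, 30.9 and 26.9 in AM, and 23.4 and 28.0 in 6WP libraries, with all groups overlapping. The log2 fold changes of MTF1 were 0.07 (standard error 0.14) in AM against WT, -0.17 (0.14) in 6WP against AM and -0.09 (0.14) in 6WP against WT. The value for 6WP against AM was slightly larger than its standard error and the others were smaller, and MTF1 protein and zinc were not measured. SLC30A1 had 17.5 and 17.1 CPM in WT, 26.7 and 21.7 in AM, and 18.4 and 15.1 in 6WP libraries. Like most metallothioneins, SLC30A1 was higher in both AM libraries than in any other. The size was smaller, at 0.48 on the log2 scale (standard error 0.16) in AM against WT, -0.53 (0.16) in 6WP against AM and -0.05 (0.16) in 6WP against WT.

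Counted together, the 7 metallothioneins gave 109 and 113 CPM in WT libraries, 254 and 258 CPM in AM libraries, and 112 and 96.4 CPM in 6WP libraries. The sum does not depend on how reads were divided among these 7 genes, but it leaves out reads assigned to other loci. It was 2.31 times as high in AM as in WT cells and 0.942 times as high in 6WP as in WT cells. MT2A held 53.7% and 59.4% of the summed counts in WT, 61.2% and 63.6% in AM, and 58.3% and 48.4% in 6WP libraries. The share of MT1X was 23.2% and 19.6% in WT, 8.24% and 10.4% in AM, and 18.0% and 27.0% in 6WP libraries. MT1G went the other way, with 8.17% and 6.51% in WT against 15.6% and 12.4% in AM libraries, and 8.91% and 9.97% in 6WP libraries. MT1M made up 1.93% and 1.71% in AM libraries and at most 0.205% elsewhere.

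**Figure D3:**
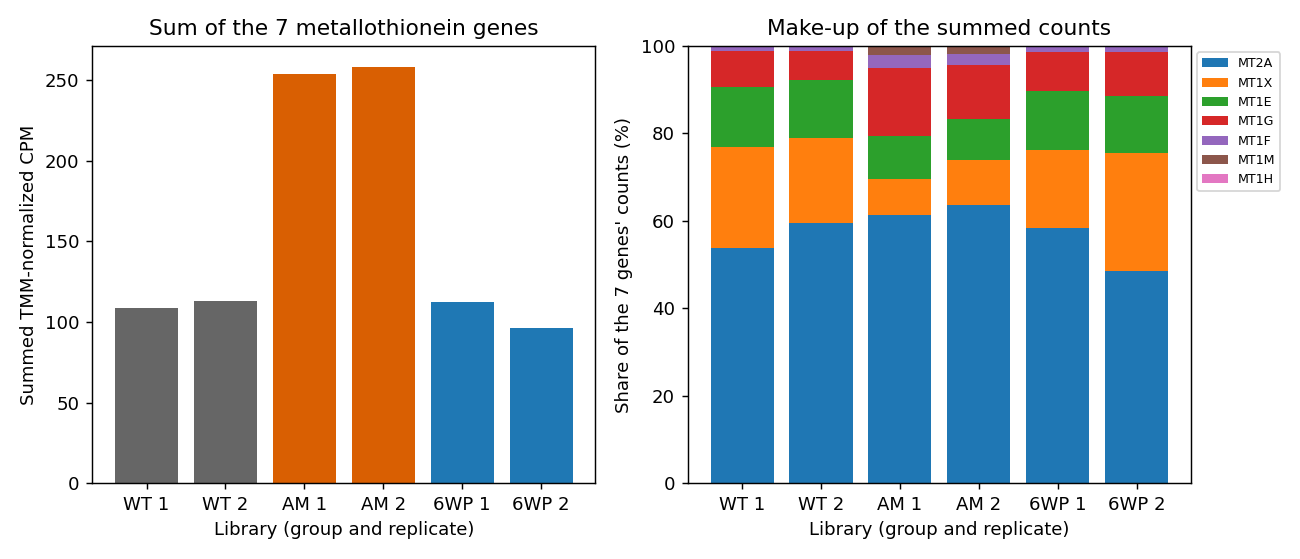
Left, summed TMM-normalized CPM of the 7 metallothionein genes in each library. Right, the share of these counts held by each gene, in percent. AM libraries reach 254 and 258 CPM against at most 113 elsewhere, and MT1X takes a smaller share of them.

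Per kilobase of canonical transcript, the level of MT2A was highest in every group, at a mean of 156 CPM per kb for WT, 398 for AM and 140 for 6WP cells. These lengths come from GENCODE and may differ from the annotation used for counting. The transcript of MT1E, with 2 exons and 746 bases, is the longest of the 7 metallothioneins, which lowers its level per kb. In CPM without length, MT1E lay above MT1G in WT (means 14.9 and 8.11) and 6WP cells (13.9 and 9.81). In WT cells MT1X followed with 58.5 CPM per kb, then MT1E with 19.99 and MT1G with 19.8, which overlapped each other, MTF1 with 3.46, SLC30A1 with 2.94 and MT1F with 2.67, the last pair overlapping, and MT1M and MT1H under 0.4, which also overlapped. In AM cells the order changed, since MT1G with 87.3 CPM per kb passed MT1X with 59.1 and MT1F and MT1M, with 15.7 and 11.7, passed SLC30A1 with 4.11 and MTF1 with 3.64. Only the last 2 of these overlapped. In 6WP cells the order was MT2A, MT1X, MT1G with 23.9 and MT1E with 18.7 CPM per kb, which did not overlap here, followed by MTF1, MT1F and SLC30A1 at 3.24, 3.07 and 2.84 CPM per kb, of which each overlapped its neighbour.

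Other genes of the family were examined beside the members. MT1L, a transcribed pseudogene next to MT2A, was counted 2 and 6 times in WT, 34 and 38 times in AM, and 7 and 2 times in 6WP libraries. Over the summed counts the ratio of AM to WT was 6.95, with an exact 95% counting interval of 3.35 to 16.7, that of 6WP to AM 0.128 (0.0561 to 0.256) and that of 6WP to WT 0.887 (0.304 to 2.64). MT1L too passed the filter only through the AM libraries, so no p-value is given, and the annotation gives a second locus, ENSG00000291105, on the same exons. MT3, a metallothionein best known from the brain, had 13 and 13 counts in WT, 13 and 23 in AM, and 10 and 2 in 6WP libraries, and did not pass in any comparison (edgeR's adjusted p = 0.923, 0.104 and 0.223 for AM against WT, 6WP against AM and 6WP against WT). The pseudogene MT1DP had 3 and 1, 8 and 6, and 2 and 0 counts in the same order of groups and was not tested. MT1A and MT1IP had 1 count each over all libraries, and MT1B, MT1HL1, MT1JP and MT4 had 0. The symbol MT1CP was not found in the table.

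Genes flanking the cluster were compared because the members lie side by side. On the side of MT2A, GNAO1, NUDT21, OGFOD1 and BBS2 did not pass in any comparison, with log2 fold changes in AM against WT between -1.03 and 0.21. On the side of MT1X, the nucleoporin gene NUP93 rose by 0.63 (adjusted p = 0.0177) in AM against WT cells and HERPUD1, an ER stress gene, by 0.96 (adjusted p = 0.00321). Both fell in 6WP against AM cells, with log2 fold changes of -0.90 (adjusted p = 0.00549) and -1.34 (adjusted p = 0.00164). CETP and SLC12A3 were not tested for lack of counts. NUP93 did not pass in AM against WT in 4 of the 12 alternatives, with an adjusted p of up to 0.158 (without WT replicate 2), and HERPUD1 in 3 of the 12, with up to 0.0682 (without WT replicate 1). For 6WP against AM, NUP93 did not pass in 2 of the 12, with up to 0.0687 (without AM replicate 1), and HERPUD1 passed in all 12.

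**Figure D4:**
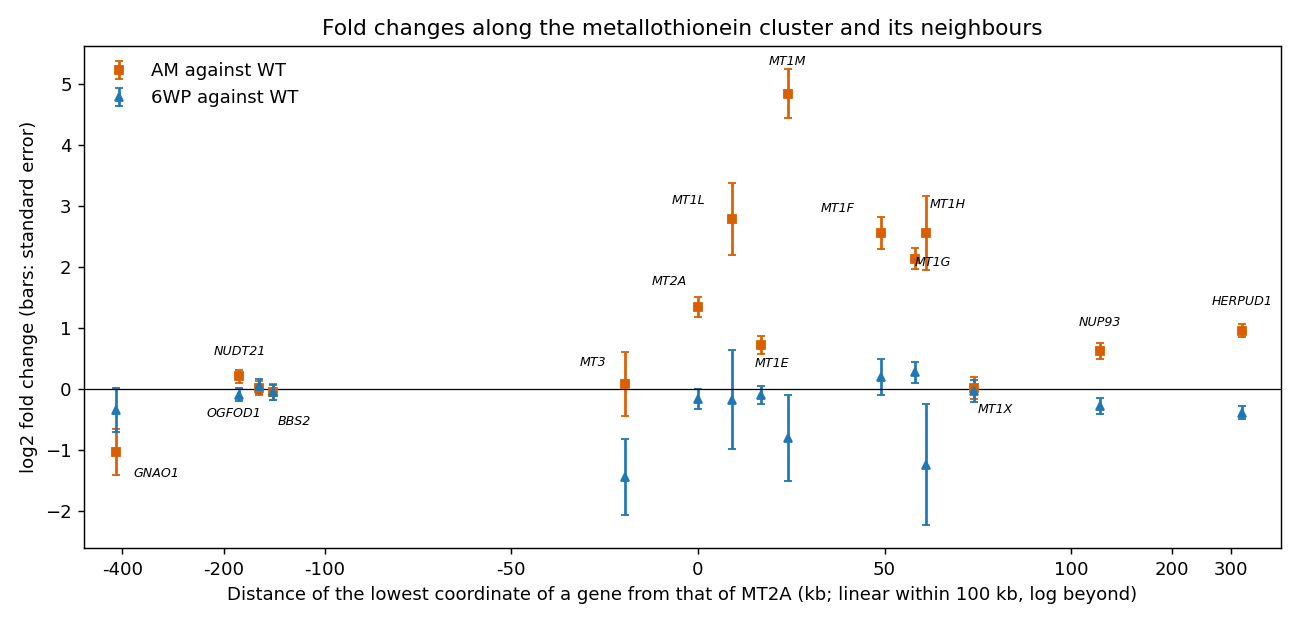
Log2 fold changes of tested genes along chromosome 16 against their distance from MT2A in kb (linear within 100 kb, log beyond), for AM against WT (squares) and 6WP against WT (triangles), with bars of 1 standard error. Values of AM against WT rise to 4.84 at MT1M within the cluster, are near 0 at MT3 and MT1X, and are 0.63 and 0.96 at NUP93 and HERPUD1.

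Genes that transport zinc or handle copper (transporters, chaperones and enzymes), apart from the members, changed in both directions. Of 30 tested genes of this list, 5 rose and 4 fell in AM against WT cells, where 17.7% of all genes passed, with a list median of 0.09. In 6WP against AM cells 4 rose and 5 fell (21.3% of all genes passed, list median -0.07), and in 6WP against WT cells 1 rose and 1 fell (list median -0.11). Among zinc exporters, SLC30A4 fell in AM against WT cells (log2 fold change -1.09, adjusted p = 0.0283). Among zinc importers, SLC39A10 fell by 1.24 (adjusted p = 0.00599), and SLC39A3, SLC39A4 and the ER zinc channel SLC39A7 rose by 0.82, 0.61 and 0.58 (adjusted p = 0.0201, 0.0239 and 0.0103). SLC39A10 was in turn higher in 6WP than in AM cells by 0.58 (adjusted p = 0.0476) and SLC39A13 by 0.86 (adjusted p = 0.0170), while SLC39A7 fell by 0.73 (adjusted p = 0.00474). Against WT cells SLC39A4 was the only zinc transporter that passed in 6WP cells, at 0.76 (adjusted p = 0.0328). Of copper genes in AM against WT cells, the plasma copper protein CP and the copper pump ATP7A fell, with log2 fold changes of -2.63 (adjusted p = 0.00985) and -0.94 (adjusted p = 0.00845), and the chaperone COX17 and the dismutase SOD1 rose by 0.72 (adjusted p = 0.0123) and 0.53 (adjusted p = 0.0170). In 6WP against AM cells CP and the SOD1 chaperone CCS rose by 1.76 (adjusted p = 0.0297) and 0.74 (adjusted p = 0.0212), and COX17 and SLC31A2 fell, with log2 fold changes of -0.87 (adjusted p = 0.00629) and -0.72 (adjusted p = 0.0350). ATP7A also fell between WT and 6WP cells (log2 fold change -0.82, adjusted p = 0.0342). For 6WP against AM, SLC39A10 passed in 4 of the 12 alternatives and SLC31A2 in 6. In the same comparison SLC39A13, CP and CCS passed in 7 of the 12, and SLC39A7 and COX17 in 10. For 6WP against WT, SLC39A4 and ATP7A each passed in 7 of the 12. Without either WT or either AM library, 0 of the list passed in AM against WT cells. Exons of SLC30A4, SLC31A2, SLC39A4, SLC39A7, CP and ATP7A overlap other genes on the opposite strand, and the strand setting of the counting was not stated. Those of COX17, SLC39A3 and ATP7A overlap other annotated genes on the same strand.

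Genes that cadmium induces along with the metallothioneins, such as heat shock and glutathione genes, were examined as well. Of the 9 tested, 0 passed in AM against WT cells, where 17.7% of all genes did (1 had an unadjusted p under 0.05, and 0 passed the Wald test of DESeq2), with log2 fold changes between -0.33 and 0.46. HMOX1, the most used marker of such stress, reached 5.02 ± 0.283 CPM (WT), 6.67 ± 1.10 CPM (AM) and 3.20 ± 2.33 CPM (6WP; SD over 2 libraries) and is named for that role after its values were seen. In 6WP against AM cells, where 9.68% of all genes fell, 5 of the 9 fell, among them HSPH1, GCLM, DNAJB1 and HSPA1B with log2 fold changes of -1.07, -0.66, -0.63 and -0.50 (adjusted p = 0.0128, 0.0221, 0.00887 and 0.0404), and in 6WP against WT cells TXNRD1 fell by 0.61 (adjusted p = 0.0329). HSPA1B is nearly identical to HSPA1A, so its counts are uncertain. Exons of DNAJB1 overlap other genes on the opposite strand. For 6WP against AM, HSPH1 and DNAJB1 passed in 10 of the 12 alternatives, and GCLM and HSPA1B in 7. For 6WP against WT, TXNRD1 passed in 7 of the 12.

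**Figure D5:**
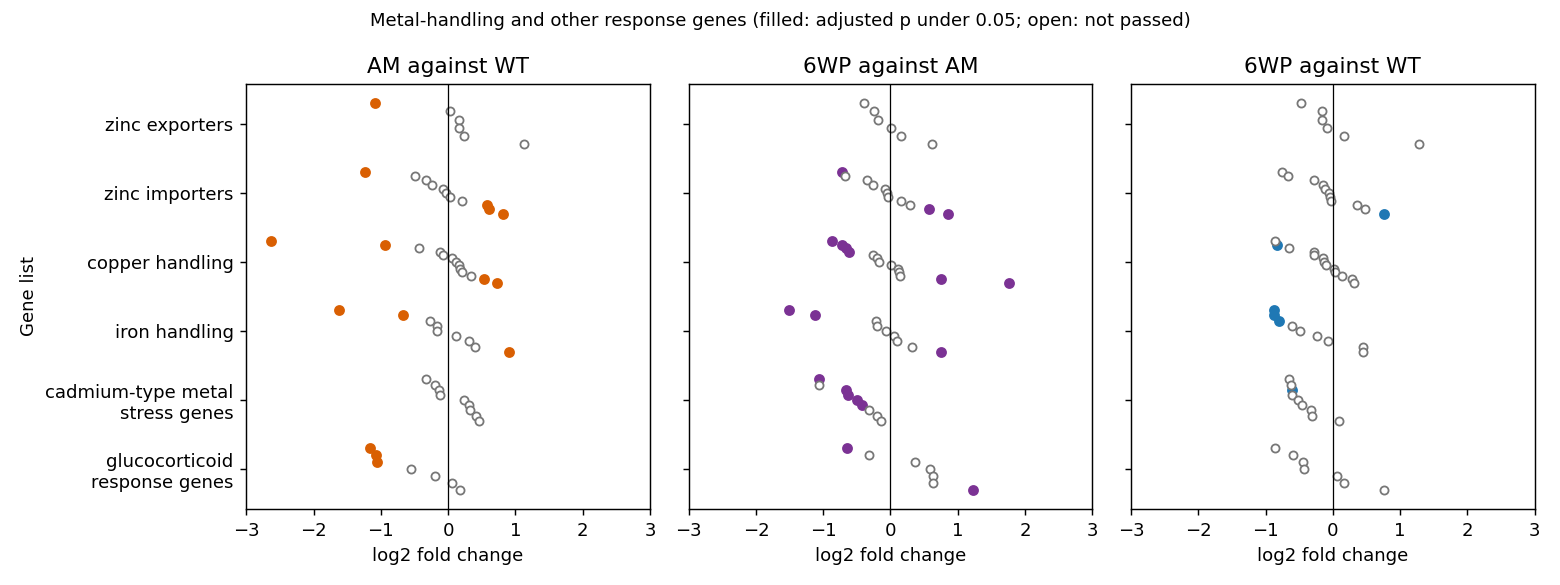
Log2 fold changes of genes in 6 lists, in 3 panels for AM against WT, 6WP against AM and 6WP against WT. Each point is a gene, filled where its adjusted p-value was under 0.05, and the zinc and copper lists show filled points on both sides of 0.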

How the data were processed

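Total RNA of 6 libraries was sequenced as 100 bp single end reads after a stranded preparation. According to the methods and the submitters' processing notes, the authors aligned reads to hg38 with STAR 2.5.3a and assembled transcripts with StringTie 1.3.3, and featureCounts 1.5.3 is among the tools named. Annotation and strand setting are not given in the sources used here. The deposited values are raw counts per gene symbol, whole numbers without normalization, and 0 columns were left out.

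Genes were filtered with filterByExpr, TMM factors were computed and edgeR 4.0.16 (R 4.3.3) fitted its quasi-likelihood model to the 6 libraries with group as the single factor. This left 14672 of 29804 symbols, and p-values were adjusted over all of them by the Benjamini-Hochberg method at 0.05 (two-sided). Standard errors are the log2 fold change over the square root of F. With 2 against 2 libraries an exact permutation test cannot go below p = 0.333. The pipeline was tested on simulated counts. CPM is scaled by the TMM-adjusted library total.

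The members, gene lists and tests were chosen with earlier results of these data known. The text names all members, all other metallothioneins with a count, the called genes of each list (at most 4 per comparison, by size) and the 5 genes of most similar pattern. Positions and transcripts are from GENCODE 44, promoters from RefSeq. Alternatives were DESeq2's size factors, library totals only, no filter beyond 1 count, the Wald test of DESeq2 1.42.0, a fit to 2 groups, a replicate block and each library left out. Some marker and neighbouring genes are not reported here.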

Additional observations from a re-analysis of the deposited data

How the results depend on the processing

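The member medians kept their direction under every alternative run. So did the summed metallothionein level with DESeq2's size factors, with library totals only and with each library left out. It was not computed under the others. In 6WP against WT the direction carries little meaning, since the main median of -0.09 was smaller than the SD between replicates, 0.107. Leaving out 1 library at a time, the median log2 fold change of the 9 genes ranged from 1.26 to 1.47 in AM against WT, from -1.78 (without 6WP replicate 1) to -1.32 (without 6WP replicate 2) in 6WP against AM and from -0.21 to -0.0039 in 6WP against WT. The log2 ratio of the summed level ranged from -1.41 to -1.22 in 6WP against AM and from -0.22 to -0.0052 in 6WP against WT. Counts of genes passing were far less stable, and the cause was not tested. Of all genes, 440 passed in 6WP against WT, 3131 in 6WP against AM and 2593 in AM against WT. With 1 library left out these became 0 (without either WT library) to 3870 (without 6WP replicate 2), 116 (without AM replicate 2) to 6807 (without 6WP replicate 1) and 67 (without AM replicate 2) to 6654 (without 6WP replicate 2). Fits to only the groups compared gave 96, 1309 and 6620, and in 6WP against WT no filter gave 894 and the Wald test of DESeq2 1052. Of the zinc and copper list, 2, 9 and 9 genes passed, with 1 library left out 0 to 12, 0 to 15 and 0 to 15, and with only the groups compared 0, 3 and 14. In 6WP against WT both no filter and the Wald test gave 4. With 1 library left in a group, that library was assumed to vary like the other groups.

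Deviations of libraries with equal replicate numbers correlated by 0.087 in 6WP against WT, -0.021 in 6WP against AM and 0.040 in AM against WT. The replicate numbers thus showed little shared deviation over genes. Whether cultures were paired cannot be decided from this, since their separation is not stated. With the replicate block 393, 3069 and 2485 genes passed, and 7 in place of 6 members were lower in 6WP against AM. At these depths MT1H and MT1M outside AM cells rest on 5 counts or fewer per library.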

Other observations

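Of 9 iron genes, 1 rose and 2 fell in AM against WT cells, where 7.74% of all genes rose and 9.93% fell. In AM against WT cells the transferrin receptor gene TFRC rose by a log2 fold change of 0.90 (adjusted p = 0.0201), while the iron exporter gene SLC40A1 and ACO1, which encodes the iron-sensing aconitase, fell, with log2 fold changes of -1.62 (adjusted p = 0.00270) and -0.67 (adjusted p = 0.00800). In 6WP against AM cells TFRC and the ferrireductase gene STEAP3 fell, with log2 fold changes of -1.50 (adjusted p = 0.00402) and -1.12 (adjusted p = 0.00374), and SLC40A1 rose by 0.75 (adjusted p = 0.0218). In 6WP against WT cells SLC40A1, ACO1 and STEAP3 fell, with log2 fold changes of -0.87, -0.87 and -0.81 (adjusted p = 0.0399, 0.00830 and 0.0303). Metallothionein genes also respond to glucocorticoids, and of 7 glucocorticoid response genes 0 rose and 3 fell in AM against WT cells, beside the same 7.74% and 9.93% of all genes, KLF9, DUSP1 and ZBTB16, with log2 fold changes of -1.16, -1.07 and -1.06 (adjusted p = 0.00755, 0.0425 and 0.0141). KLF9 rose by 1.23 (adjusted p = 0.00549) and FKBP5 fell by 0.65 (adjusted p = 0.0331) in 6WP against AM cells, and 0 of the 7 passed in 6WP against WT cells by edgeR (2 had an unadjusted p under 0.05, and 1 rose and 1 fell by the Wald test of DESeq2). Single libraries decided some of these calls, and SLC40A1 in 6WP against WT, for example, had an adjusted p of 0.391 without WT replicate 1. Exons of STEAP3, TFRC and ZBTB16 overlap genes on the opposite strand.

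Among 2281 other tested genes whose group means differed by at least 1 log2 unit, the pattern most like the mean of the 7 metallothioneins over the 6 libraries was that of SLCO4A1 (Pearson's r = 0.995), C18orf8 (0.992), NXPH2 (0.987), EDN2 (0.984) and C19orf10 (0.984). With 6 libraries in 3 groups, r mostly reflects the high AM libraries and is a description. SLCO4A1, an organic anion transporter gene, had log2 fold changes of 1.10 in AM against WT and -1.18 in 6WP against AM, given without a test since the gene was chosen for this pattern. EDN2, which encodes endothelin 2, had 6.41 and 8.12 CPM in AM libraries against 1.74 to 2.22 in the others. Among the members themselves r with this mean was 0.997 for MT1M, 0.969 for MT2A, 0.898 for SLC30A1, 0.494 for MTF1 and 0.0945 for MT1X. Each of the 7 metallothioneins is part of this mean, so its r is partly built in. SLC30A1 and MTF1 are not part of it, so their values are not directly comparable.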
